A study of Mus musculus with 6 samples.

Results

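Cadherins and the transcription factors of the epithelial-to-mesenchymal transition (EMT) were followed in damaged hepatocytes (dHeps) through 10 genes: Cdh1, Cdh2, Snai1, Snai2, Zeb1, Zeb2, Twist1, Twist2, Vim and Fn1. They were taken by gene symbol from a count table of 52323 genes, each matched 1 row, and all 10 passed the filter on low counts. RNA was sequenced from cells of AAV-TBG-Cre:Rosa-LSL-tdTomato mice with carbon tetrachloride (CCl4) liver injury, in which the hepatocyte promoter TBG drives Cre and so marks hepatocytes with tdTomato. The cells were obtained by collagenase perfusion and then kept for 16 days in serum-free Hepatocyte Maintenance Medium with the solvent dimethyl sulfoxide (DMSO), with a cocktail of 3 compounds (3C), or with the 3 compounds and 2 more (5C). 3C held 2 µM of the ROCK inhibitor GSK429286A, 5 µM of the AMPK activator ETC-1002 and 50 µM of the protein kinase D inhibitor CID755673, and 5C held the same doses plus 2 µM of forskolin, which activates adenylate cyclase, and 5 µM of the plant glycoside salidroside. Injury, genotype, medium and day were shared by all groups, and the labels gave neither the age of the animals nor a sort for tdTomato+ cells in these libraries. Each group had 2 libraries. The study's methods describe replicates in general as biologically separate, but the labels only number these libraries and name no animals or cultures, so that part of the spread behind the p-values may be technical.

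In EMT, an epithelial cell gives up the E-cadherin junctions that hold it to its neighbours and takes on a filament system and matrix that favour migration. The Snail, Zeb and Twist proteins are the best known factors of this program, and Snail and Zeb proteins bind E-box words in DNA and repress Cdh1. In the liver, hepatocytes carry E-cadherin and N-cadherin together, while vimentin and fibronectin are also made by mesenchymal cells, and macrophages express Zeb2 as part of their identity.

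The promoters of Snai1, Twist1 and Zeb2 are shown because these 3 transcription factors passed the test described with the fold changes. The RefSeq promoter table (GRCm38.p6) matched 5 of the 10 genes, namely Snai1, Twist1, Twist2, Vim and Zeb2, and each window was placed in GRCm39 by exact match. Each sequence holds the 250 bases before the RefSeq start in the direction of the gene. Capitals mark a CAGGTG or CACCTG word, the E-box form that Snail and Zeb proteins bind, or a TGACG or CGTCA word, the core of the cAMP response element. These words were searched for on both strands and do not overlap each other here. The Snai1 window is chr2:167379865-167380114 (plus strand), the Twist1 window chr12:34007420-34007669 (plus strand), and the Zeb2 window, the first of 4 in the table, chr2:45007455-45007704 (minus strand).
Snai1: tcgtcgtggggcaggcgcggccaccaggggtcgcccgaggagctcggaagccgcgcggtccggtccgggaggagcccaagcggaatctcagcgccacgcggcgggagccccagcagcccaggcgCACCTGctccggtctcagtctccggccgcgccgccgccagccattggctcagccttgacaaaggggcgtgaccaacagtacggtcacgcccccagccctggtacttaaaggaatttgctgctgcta
Twist1: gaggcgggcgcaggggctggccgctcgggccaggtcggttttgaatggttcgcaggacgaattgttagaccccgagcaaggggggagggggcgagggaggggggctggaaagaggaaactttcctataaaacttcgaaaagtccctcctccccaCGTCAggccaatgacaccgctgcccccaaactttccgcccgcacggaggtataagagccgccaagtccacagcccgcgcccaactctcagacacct
Zeb2: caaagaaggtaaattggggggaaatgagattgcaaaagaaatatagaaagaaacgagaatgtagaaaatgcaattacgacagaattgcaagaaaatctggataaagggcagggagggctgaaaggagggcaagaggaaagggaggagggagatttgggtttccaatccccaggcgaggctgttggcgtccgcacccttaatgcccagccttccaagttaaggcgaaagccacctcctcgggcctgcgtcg
The Snai1 window held 1 CACCTG, 126 to 121 bases before the start. The Twist1 window held 1 CGTCA, 96 to 92 bases before the start, and the Zeb2 window held neither word. Of the 32851 promoters in the table, 17.2% held a CAGGTG or CACCTG and 17.8% a TGACG or CGTCA in such a window, so that both matches are common ones. Of the other 3 Zeb2 windows, 2 overlapping ones held a single shared TGACG, and the Twist2 and Vim windows held neither word.

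Total estimated counts per library ranged from 65916573 to 69245895, and the largest was 1.05 times the smallest. A floor of 3 fragments, taken as 12 units of the estimated counts, corresponded to 0.173 to 0.182 CPM (counts scaled to the library total), and every one of the 10 genes lay above it in every library. The libraries are labelled as hepatocytes. The summed level of 10 hepatocyte markers was 2546 to 2871 CPM in DMSO, 11089 to 11570 CPM in 3C and 10653 to 15417 CPM in 5C, with all 10 above the floor. The summed level of 12 macrophage markers was 11064 to 11757 CPM in DMSO, 3803 to 3815 CPM in 3C and 2452 to 2505 CPM in 5C, so that in DMSO the macrophage list was above the hepatocyte list. In bulk RNA, fewer cells of a type and less RNA per cell cannot be told apart.

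Per unit of gene length, Vim and Fn1 were the most abundant of the 10 genes in every group and Twist2 the least. Vim encodes the intermediate filament vimentin and Fn1 the matrix protein fibronectin. In DMSO, Vim was at 643 ± 10.7 FPKM (read fragments scaled by gene length and library size, SD, n = 2) and Fn1 at 519.6 ± 104 FPKM. Cdh1 (E-cadherin, chromosome 8) at 30.9 ± 2.21 FPKM and Cdh2 (N-cadherin, chromosome 18) at 30.3 ± 0.626 FPKM overlapped in DMSO. The transcription factors followed, led by Zeb2 at 23.4 ± 3.33 FPKM. Snai1 at 7.77 ± 1.09 FPKM and Zeb1 at 7.10 ± 1.05 FPKM overlapped each other, and Twist1 at 5.70 ± 0.217 FPKM, Snai2 at 4.54 ± 0.665 FPKM and Twist2 at 1.16 ± 0.533 FPKM came last.

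The order changed at 4 places. In 3C, Fn1 at 596 ± 21.0 FPKM lay above Vim at 532 ± 20.7 FPKM, and Fn1 at 631 ± 47.6 FPKM was also above Vim at 571 ± 26.4 FPKM in 5C. Snai2 at 5.08 ± 0.0301 FPKM lay above Twist1 at 3.74 ± 0.0811 FPKM in 3C, without overlap. In 5C, Cdh2 at 31.1 ± 2.24 FPKM lay above Cdh1 at 25.8 ± 0.923 FPKM, with no overlap. Snai1 reached 13.9 ± 0.275 FPKM in 5C and stood above both Zeb genes there. Zeb1 in 5C, at 7.63 and 11.4 FPKM, overlapped both Zeb2 and Twist1, so that the order among these 3 is not set. In 3C, Zeb1 and Snai1 again overlapped.

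**Figure D1:**
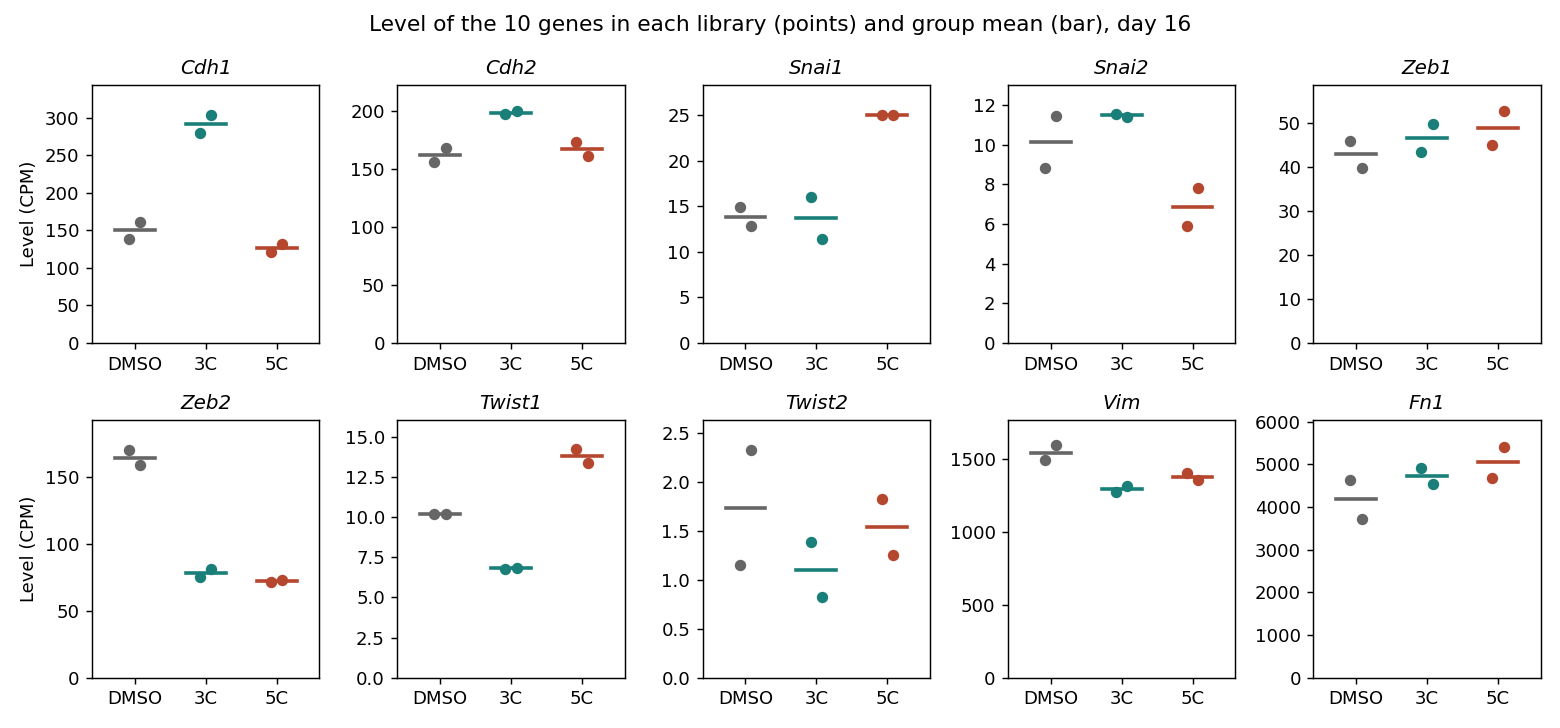
Level in CPM (vertical axis, from 0, a scale for each gene) of the 10 genes in the DMSO, 3C and 5C libraries, where points are libraries and bars are means of 2. Cdh1 was highest in both 3C libraries, Snai1 and Twist1 were highest in both 5C libraries, and Zeb2 was highest in both DMSO libraries.

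Each gene was tested with edgeR's quasi-likelihood test across 19135 genes, and passed at a Benjamini-Hochberg adjusted p under 0.05, adjusted within each of the 3 comparisons. Between 5C and DMSO, 3 of the 10 genes passed, Snai1 and Twist1 higher and Zeb2 lower, where 28.7% of all tested genes passed (15.6% higher and 13.1% lower). Between 3C and DMSO, 5 passed, Cdh1 and Cdh2 higher and Zeb2, Twist1 and Vim lower, beside 24.5% of all tested genes (12.7% higher and 11.8% lower). Between 5C and 3C, 3 passed, Snai1 and Twist1 higher and Cdh1 lower in 5C, beside 12.7% of all tested genes (7.33% higher and 5.33% lower). With the added limit of an absolute log2 fold change above 1, only Zeb2 remained in each comparison with DMSO, and Cdh1 and Twist1 remained between 5C and 3C, beside 11.7%, 9.45% and 3.01% of all tested genes. The libraries of the 2 groups did not overlap for 7 of the 10 genes between 5C and DMSO, 5 between 3C and DMSO and 7 between 5C and 3C, beside 63.1%, 61.3% and 58% of all tested genes. By adjusted p alone, the count for 5C against DMSO is near the share of all tested genes and the other 2 counts are above theirs, over few genes, while the 5 genes without overlap between 3C and DMSO are below the share of all tested genes. The median log2 fold changes of the 10 genes, -0.04, 0.02 and 0.13, stood beside 0.0041, 0.0088 and -0.011 over all tested genes. The DMSO libraries serve as the control of both cocktails.

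**Figure D2:**
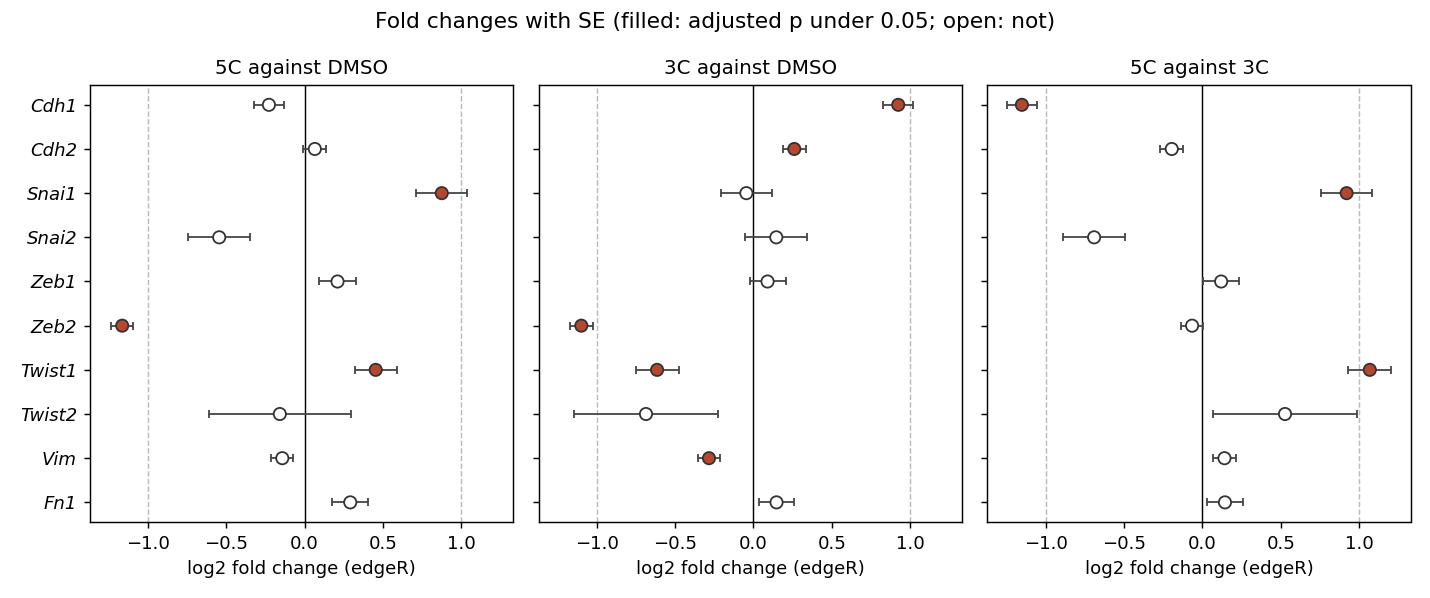
Log2 fold changes (horizontal axis) of the 10 genes in the 3 comparisons with SE bars, where filled points had an adjusted p under 0.05 in edgeR and dashed lines mark an absolute log2 fold change of 1. Zeb2 lay near -1.1 in both comparisons with DMSO, Cdh1 rose in 3C and was lower in 5C than in 3C, and Twist1 changed direction between the cocktails.

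E-cadherin rose in 3C, and its value in 5C did not pass against DMSO. Cdh1 (chromosome 8, 107329941 to 107396880, GRCm39, plus strand) encodes the cadherin of epithelial adherens junctions. It was at 139 and 162 CPM in DMSO, 280 and 303 CPM in 3C, and 122 and 132 CPM in 5C. Both 3C libraries were above all others, and both 5C libraries lay below both DMSO libraries by a small margin. The log2 fold change of 3C against DMSO was 0.92 (SE 0.10, adjusted p 0.000142) in edgeR, a 1.90-fold rise. For 5C against DMSO it was -0.23 (SE 0.10, adjusted p 0.117), and the range of 2 SE on either side ran from -0.42 to -0.04. The adjusted p of this comparison was 0.0267 when DMSO replicate 1 was left out and 0.0410 with the replicate number as a block. Without DMSO replicate 2 the log2 fold change was -0.10 (adjusted p of 0.491). Cdh1 was 2.22-fold lower in 5C than in 3C, a log2 fold change of -1.15 (SE 0.10, adjusted p 0.00027). The cocktails thus differed at E-cadherin although the 3 shared compounds were at the same doses. Summed cholangiocyte markers were at 2912 to 3426 CPM in DMSO, 3566 to 3710 CPM in 3C and 2329 to 2637 CPM in 5C. Without Spp1, the most abundant of the list, they were at 164 to 194 CPM in DMSO, 384 to 411 CPM in 3C and 271 to 303 CPM in 5C. Their part in the result was not tested.

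N-cadherin, encoded by Cdh2 (chromosome 18, 16700793 to 16942381, minus strand), moved less. Its levels were 155 and 168 CPM in DMSO, 197 and 200 CPM in 3C, and 173 and 161 CPM in 5C. The 3C libraries were the highest, and the 5C libraries overlapped those of DMSO. The rise in 3C was small, at 0.26 on the log2 scale (SE 0.07, adjusted p 0.0287). It did not pass in 5 of 14 alternatives, namely both FPKM fits (adjusted p of 0.0656 and 0.0645) and leaving out DMSO replicate 1, 3C replicate 1 or 3C replicate 2 (0.119, 0.143 and 0.186). For 5C against 3C the log2 fold change was -0.20, with a range of 2 SE from -0.34 to -0.05 and an adjusted p of 0.128.

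Snail, encoded by Snai1 (chromosome 2, 167380113 to 167384734, plus strand), rose in 5C against both other groups. Snail is a zinc finger repressor of Cdh1, and its promoter above holds the E-box word. It was at 14.9 and 12.8 CPM in DMSO, 16.0 and 11.4 CPM in 3C, and 25.0 and 25.1 CPM in 5C. Both 5C libraries were above the other 4, and the 3C libraries lay on both sides of those of DMSO. The fold change of 5C against DMSO was 1.83, or 0.88 on the log2 scale (SE 0.16, adjusted p 0.00327). Against 3C it was 1.89-fold, or 0.92 on the log2 scale (SE 0.16, adjusted p 0.00649). For 3C against DMSO the log2 fold change was -0.05, with a range of 2 SE from -0.37 to 0.28 and an adjusted p of 0.888. Of the exonic bases of Snai1, 12.7% overlapped an annotated gene on the opposite strand, and the use of strand in counting is not given in the sources used here, so that reads from the 2 genes cannot be told apart there.

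Slug, the related repressor encoded by Snai2 (chromosome 16, 14523425 to 14527252, plus strand), had its lowest values in 5C. It was at 8.84 and 11.4 CPM in DMSO, 11.6 and 11.4 CPM in 3C, and 5.91 and 7.81 CPM in 5C. Both 5C libraries lay below all others, opposite to the order for Snai1. The log2 fold change was -0.54 against DMSO (SE 0.20, adjusted p 0.0725) and -0.69 against 3C (SE 0.20, adjusted p 0.0546). Neither passed in the test over all 6 libraries. Against 3C the adjusted p was under the threshold in 8 of 14 alternatives, among them DESeq2 (0.0177), the fit of the 4 libraries compared (0.0396) and the fit with the replicate number as a block (0.0390). Against DMSO it was so in 2 of 14, without DMSO replicate 1 (0.0423) and without 5C replicate 2 (0.0441). The log2 fold change against DMSO was -0.33 without DMSO replicate 2 (adjusted p of 0.335), and -0.345 without 5C replicate 1 (adjusted p of 0.335).

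Zeb2 fell in both cocktails and Zeb1 passed in neither. Zeb2 (chromosome 2, 44873644 to 45007464, minus strand) encodes a zinc finger and homeodomain repressor. It was at 170.2 and 158 CPM in DMSO, 75.4 and 81.4 CPM in 3C, and 71.5 and 73.2 CPM in 5C. Both DMSO libraries were above all the others by more than the spread within any group. Zeb2 was 2.24-fold lower in 5C than in DMSO, or -1.16 on the log2 scale (SE 0.07, adjusted p 4.76e-06). In 3C it was 2.14-fold lower, or -1.10 on the log2 scale (SE 0.07, adjusted p 1.02e-05). Between the cocktails the log2 fold change was -0.07, and the range of 2 SE from -0.21 to 0.08 bounds a difference that was not detected (adjusted p of 0.662).

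The macrophage markers moved with Zeb2 in the comparisons with DMSO, where 13.1% (5C) and 11.8% (3C) of all tested genes passed as lower. Of 12 macrophage markers, 10 fell and 1, Cd14, rose in each comparison with DMSO, with a median log2 fold change of -2.05 in 5C and -1.49 in 3C. Among them, Csf1r, the receptor of a macrophage growth factor, was at 439 and 417 CPM in DMSO, 145 and 165 CPM in 3C, and 105 and 104 CPM in 5C. Without Lyz2, the most abundant of the list, the sum was 5041 to 5620 CPM in DMSO, 1982 to 2026 CPM in 3C and 1339 to 1406 CPM in 5C. In 5C against 3C, 9 of the 12 markers were lower and the other 3 did not pass, beside 5.33% of all tested genes lower. The median log2 fold change of the 12 markers was -0.51, while the value for Zeb2 was -0.07. The part of the macrophage markers in the fall of Zeb2 was not tested. The antisense gene Zeb2os overlapped 3.83% of the exonic bases of Zeb2 and had 175 and 201 estimated counts in DMSO against 71 to 115 in the cocktails.

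Zeb1 (chromosome 18, 5591851 to 5775467, plus strand), the paralog of Zeb2 and likewise a repressor of Cdh1, was at 45.9 and 39.9 CPM in DMSO, 43.5 and 49.8 CPM in 3C, and 45.1 and 52.7 CPM in 5C. The 3 groups overlapped. Its log2 fold change was 0.21 in 5C against DMSO (range of 2 SE from -0.02 to 0.44, adjusted p of 0.222) and 0.09 in 3C (range from -0.14 to 0.32, adjusted p of 0.654).

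Twist1 (chromosome 12, 34007645 to 34009828, plus strand), a helix-loop-helix factor of mesoderm and mesenchyme, went down in 3C and up in 5C. It was at 10.2 and 10.2 CPM in DMSO, 6.78 and 6.85 CPM in 3C, and 14.2 and 13.4 CPM in 5C. The 3 groups were separate, with 3C lowest and 5C highest. In 3C it was 1.53-fold lower than in DMSO, or -0.61 on the log2 scale (SE 0.14, adjusted p 0.00997), and in 5C it was 1.37-fold higher, or 0.45 on the log2 scale (SE 0.14, adjusted p 0.0337). Between the cocktails it was 2.10-fold higher in 5C, or 1.07 on the log2 scale (SE 0.14, adjusted p 0.00163). Among all tested genes, 0.486% (93 genes) passed in both comparisons with DMSO in opposite directions. The rise against DMSO lost its call in 7 of 14 alternatives, with the 4 libraries compared (adjusted p of 0.0520) and without any 1 of the 6 libraries (0.0641 to 0.148). The fall in 3C lost its call without 3C replicate 1 (0.0756) or 3C replicate 2 (0.0659).

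Markers of mesothelium, the liver's outer lining, were also higher in 5C, where Snai1 and Twist1 rose. Of 7 mesothelial markers, 6 rose in 5C against DMSO and 6 were higher in 5C than in 3C. The median log2 fold changes were 1.18 and 1.11, and 28.7% and 12.7% of all tested genes passed in these comparisons. In 3C against DMSO, 2 of the 7 rose and 0 fell (median of 0.07), where 24.5% of all tested genes passed and Twist1 fell. The 7 summed to 979 to 1193 CPM in DMSO, 1263 to 1409 CPM in 3C and 2308 to 2412 CPM in 5C. None of them was at 0. The summed level of 12 stellate cell and fibroblast markers was 1074 to 1210 CPM in DMSO, 1725 to 1891 CPM in 3C and 2229 to 2321 CPM in 5C, and 6 of them rose and 1 fell in 5C against DMSO. In 5C against 3C, 2 of the 12 were higher and 3 lower, with a median log2 fold change of -0.0054. The part of either list in the results for Snai1 and Twist1 was not tested.

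Twist2 (chromosome 1, 91729176 to 91796542, plus strand), a paralog of Twist1, was the least abundant of the 10 genes. It was at 1.15 and 2.32 CPM in DMSO, 1.39 and 0.821 CPM in 3C, and 1.82 and 1.26 CPM in 5C. The 3 groups overlapped, and an SE of 0.45 to 0.46 on the log2 scale left changes of either sign within 2 SE in every comparison. Of its exonic bases, 26.6% overlapped an annotated gene on the opposite strand, and its value is uncertain for this reason too.

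Vimentin and fibronectin had small fold changes. Vim (chromosome 2, 13578738 to 13587639, plus strand) was at 1488 and 1590 CPM in DMSO, 1271 and 1316 CPM in 3C, and 1403 and 1352 CPM in 5C. The DMSO libraries were the highest and those of 3C the lowest. The fall in 3C was 1.22-fold, or -0.28 on the log2 scale (SE 0.07, adjusted p 0.0183). It did not pass without 3C replicate 1 (0.176) or 3C replicate 2 (0.101). The macrophage markers were also highest in DMSO but lower in 5C than in 3C, and their part in the fall of Vim was not tested. In 5C against DMSO the log2 fold change was -0.14, with a range of 2 SE from -0.28 to 0.0006 and an adjusted p of 0.183. Of 50-base words in Vim transcripts, 15.2% also occurred in transcripts of another gene, mostly one on the opposite strand.

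Fn1 (chromosome 1, 71624673 to 71692419, minus strand) was at 4638 and 3730 CPM in DMSO, 4925 and 4542 CPM in 3C, and 4678 and 5415 CPM in 5C. DMSO replicate 2 was the lowest library, and the other 5 lay within 4542 to 5415 CPM. The log2 fold change was 0.29 in 5C (SE of 0.11, adjusted p of 0.0914) and 0.15 in 3C (SE of 0.11, adjusted p of 0.421). The first had an adjusted p of 0.0444 in DESeq2 and of 0.0163 without DMSO replicate 1, where the log2 fold change was 0.44. Without DMSO replicate 2 the log2 fold change was 0.15 (adjusted p of 0.332), and without 5C replicate 2 it was 0.16 (adjusted p of 0.463).

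Ratios within a library compare 2 genes without the library total, and are given on the log2 scale of FPKM as means of 2 libraries with no test. N-cadherin to E-cadherin, the pair whose switch gives EMT its best known readout, was at -0.03 ± 0.07 in DMSO, -0.69 ± 0.07 in 3C and 0.27 ± 0.16 in 5C. E-cadherin thus exceeded N-cadherin in both 3C libraries and was exceeded by it in both 5C libraries. From counts not divided by length, the ratio was 0.11 in DMSO, -0.56 in 3C and 0.40 in 5C, in the same order but with the other sign in DMSO. Vim to Cdh1 was at 4.38 ± 0.08 in DMSO, 3.17 ± 0.05 in 3C and 4.47 ± 0.12 in 5C, where DMSO and 5C overlapped. Zeb2 to Zeb1 was at 1.72 ± 0.0082 in DMSO, 0.53 ± 0.02 in 3C and 0.29 ± 0.38 in 5C, so that the lead of Zeb2 was smaller in both cocktails. From counts it was at 1.94 ± 0.07 in DMSO, 0.75 ± 0.06 in 3C and 0.57 ± 0.13 in 5C, with a smaller spread in 5C. Snai2 to Snai1 was at -0.78 ± 0.41 in DMSO, -0.55 ± 0.33 in 3C and -2.20 ± 0.29 in 5C, with 5C apart from the other 2 groups.

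**Figure D3:**
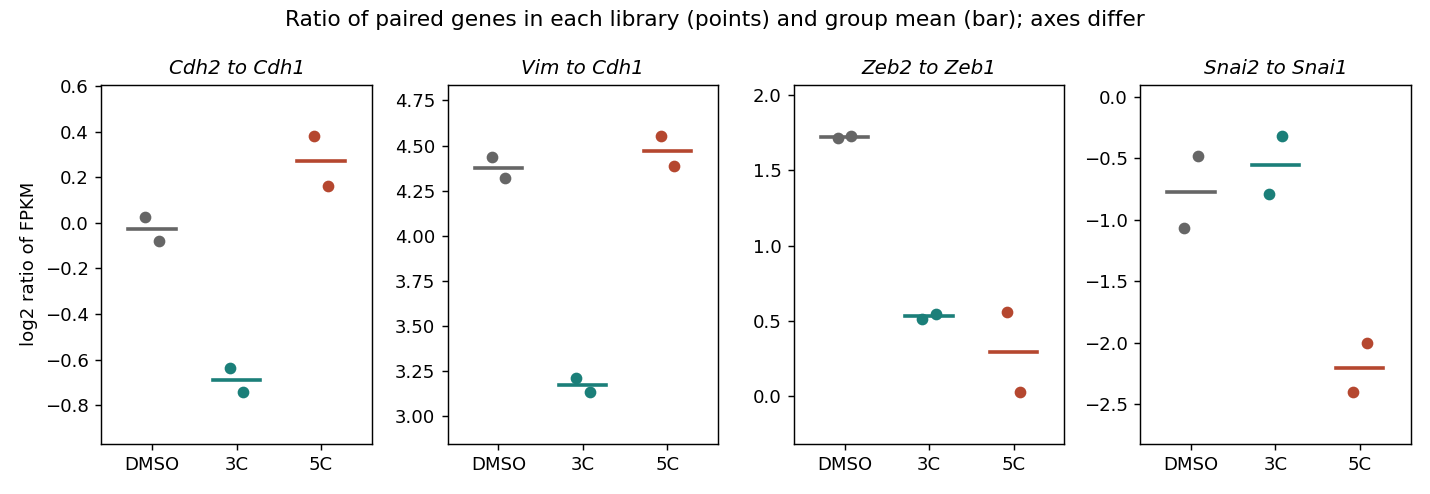
Log2 ratio of FPKM (vertical axis, a scale for each panel) between 2 genes in each library (points) with the mean of each group (bar). Cdh2 to Cdh1 was below 0 in both 3C libraries and above 0 in both 5C libraries, and Snai2 to Snai1 was lowest in 5C.

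The other cadherins moved in both directions. Of 11 listed, 9 were tested. Of all tested genes, 28.7% passed in 5C against DMSO, 24.5% in 3C against DMSO and 12.7% in 5C against 3C. These shares also stand beside the counts of the lists below. In 5C against DMSO 4 rose and 2 fell, with a list median of 0.85, and in 3C 2 rose and 1 fell, with a median of 0.31. With Cdh16, which was at or near 0, held at its floor, the median for 5C was 0.66. For 3C Cdh16 was left out, and the median was 0.26. Cdh13 (T-cadherin, which has a lipid anchor) rose from 1.70 and 1.14 CPM in DMSO to 10.4 and 8.43 CPM in 3C and 21.3 and 25.1 CPM in 5C, log2 fold changes of 2.70 (SE 0.22) and 4.05 (SE 0.23). Cdh3 (P-cadherin) fell in 3C, with a log2 fold change of -0.49, and rose in 5C, with one of 0.85, the directions that Twist1 took. Its levels were 72.5 and 62.7 CPM in DMSO, 49.9 and 48.6 CPM in 3C, and 120 and 121 CPM in 5C. Cdh17 (liver-intestine cadherin) and Cdh6 (K-cadherin) fell in 5C by 1.32 and by 1.27 on the log2 scale, and neither passed in 3C (0.31 and 0.18). In 5C against 3C, 4 were higher and 2 lower, with a median of 1.08 (0.77 with Cdh16 at its floor), led in adjusted p by Cdh3 (1.34) and Cdh17 (-1.64).

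Cdh5, the cadherin of endothelial junctions, rose in 3C with a log2 fold change of 3.17 (SE 0.59, adjusted p of 0.0224). It was at 1.25 and 1.06 CPM in DMSO, 6.45 and 14.9 CPM in 3C, and 43.3 and 72.2 CPM in 5C, the highest group. The 10 endothelial markers summed to 352 to 375 CPM in DMSO, 93.0 to 122 CPM in 3C and 127 to 193 CPM in 5C, and without Lyve1, the most abundant, to 43.4 to 56.5, 26.9 to 44.1 and 77.7 to 126 CPM. Clec4g did not exceed the floor in any library. Of the 9 tested, 4 rose and 2 fell in 3C (median of 1.07), and 6 rose and 2 fell in 5C against DMSO (median of 2.59). Between 5C and 3C, 4 were higher and 0 lower in 5C. The part of these markers in the result for Cdh5 was not tested.

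The catenins, which tie cadherins to actin, and afadin were taken as a list of 6 genes. Of these 6, 1, plakoglobin (Jup), passed in edgeR in 5C against DMSO, higher by 0.52 on the log2 scale. In 3C against DMSO 2 passed, both higher, Jup (0.64) and beta-catenin (Ctnnb1, 0.26). Of all tested genes, 28.7% and 24.5% passed in these comparisons. Between 5C and 3C, p120-catenin (Ctnnd1, -0.34) and Ctnnb1 (-0.27) were lower in 5C. The list median was -0.02 in 5C against DMSO, 0.26 in 3C against DMSO and -0.24 between the cocktails. DESeq2 gave 5 of the 6 higher in 3C against DMSO and 4 lower in 5C than in 3C, and leaving out 1 of the 3C or 5C libraries gave 0 or 1 lower in 5C than in 3C.

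Most epithelial junction and keratin genes rose in 3C, and part of them stood lower in 5C than in 3C. In 3C against DMSO, 18 of 20 rose and the other 2 did not pass, with a median log2 fold change of 0.87, among them the gap junction genes Gjb1 (2.57) and Gjb2 (2.06), the tight junction gene Cldn3 (1.07) and the desmosomal cadherin Dsg2 (0.87). In 5C against DMSO, 11 rose, among them Gjb1 (2.57), Gjb2 (2.12), Cldn1 (3.41) and Tjp3 (1.19), and 2 fell, with a median of 0.39. The difference itself was tested gene by gene in 5C against 3C, where 9 of 20 were lower in 5C and the other 11 did not pass, with a median of -0.49. The leading 4 by adjusted p were Cldn2 (-1.54), Dsg2 (-0.95), the desmosomal plaque gene Dsp (-0.95) and the tight junction gene Ocln (-1.07). For Dsg2, the levels were 154 and 152 CPM in DMSO, 284 and 290 CPM in 3C, and 151 and 137 CPM in 5C, and both 3C libraries were above the other 4, as for Cdh1. Of 8 cholangiocyte markers, 5 rose in 3C against DMSO (median of 1.35) and 4 were lower in 5C than in 3C (median of -0.64). Of 10 hepatocyte markers, 9 rose and 1 fell in each comparison with DMSO, with medians of 1.72 in 3C and 2.15 in 5C. Between 5C and 3C, 2 of them were higher and 2 lower in 5C (median of 0.28). The part of either list in the result was not tested.

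Most regulators of epithelial genes rose in both cocktails. Of 8 listed, 6 were tested, since Ovol1 and Ovol2 were near or at 0. In 5C 5 rose and 1 fell, and in 3C 4 rose and 1 fell, with medians of 1.28 and 1.09. The fit of the 4 libraries compared gave 3 that rose in 5C. The splicing regulators Esrp1 and Esrp2 rose in 3C (2.34 and 0.98) and in 5C (1.39 and 0.78). Klf4 fell in both, with log2 fold changes of -1.30 in 3C and -1.09 in 5C, and between 5C and 3C 0 of the 6 passed in edgeR and in DESeq2 (at an unadjusted p under 0.05 it was 1 and 2).

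Among the other EMT transcription factors, 1 passed in the comparisons with DMSO. Of 11 listed, 10 were in the count table and 8 were tested, and Gsc was at 0 in every library. Tcf4, a partner of Twist proteins, fell in 5C (-0.37, adjusted p of 0.0434) and in 3C (-0.53, adjusted p of 0.0103), and the other 7 did not pass. Of all tested genes, 28.7% and 24.5% passed in these comparisons. In the fit of the 4 libraries compared, 0 of 7 passed for 5C against DMSO (2 had an unadjusted p under 0.05), beside 2 lower in DESeq2, and none passed when any 1 of the DMSO or 3C libraries was left out. The list medians were -0.02 and -0.14, or 0.08 in both with genes held at their floor. Prrx1, a homeodomain factor of mesenchyme, was at 12.3 and 13.4 CPM in DMSO, 13.9 and 16.8 CPM in 3C, and 10.2 and 18.4 CPM in 5C, where the groups overlapped. Between 5C and 3C, 0 of the 8 passed in edgeR (1 had an unadjusted p under 0.05) and 1 in DESeq2.

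The mesenchymal effector genes split between the cocktails. In 3C against DMSO, 11 of 18 fell and 1 rose, with a median log2 fold change of -0.53. Among the falls were the integrin gene Itga5 (-0.99), the smooth muscle actin gene Acta2 (-1.29), the actin-binding Tagln (-1.36) and S100a4 (-0.97). In 5C against DMSO, 7 rose and 4 fell, with a median of 0.13. The collagen gene Col1a2 (0.83), Sparc (0.63) and the matrix proteases Mmp14 (0.58) and Mmp2 (1.41) rose there. In 5C against 3C, 13 of 18 were higher in 5C and the other 5 did not pass, with a median of 0.76, among them Sparc (1.07), Col1a2 (1.02) and the collagen crosslinker Lox (1.07). Sparc was at 2234 and 2218 CPM in DMSO, 1695 and 1666 CPM in 3C, and 3291 and 3522 CPM in 5C, in the same order of groups as Twist1. Between 5C and 3C, 6 of 7 mesothelial markers (median of 1.11) and 4 of 9 endothelial markers (median of 1.52) were also higher in 5C. Of 12 stellate cell and fibroblast markers, 2 were higher and 3 lower in 5C (median of -0.0054). Against DMSO in 3C, 7 of these 12 rose and 1 fell (median of 0.88). There, 10 of 12 macrophage markers fell and 1 rose (median of -1.49). The part of these lists in the result was not tested.

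Genes of TGF-beta signalling, a pathway that induces Snai1 and Twist1 in many epithelia, moved in both directions. In 5C against DMSO, 2 of 10 rose and 5 fell, with a median of -0.24, beside 28.7% of all tested genes passing. The inhibitor gene Smad7 (1.51) and the ligand gene Tgfb3 (1.14) rose, and the receptor gene Tgfbr2 (-0.57) and the signal transducer Smad3 (-0.44) fell. In 3C, Smad7 (0.84) and Tgfb2 (0.68) rose, and Tgfbr2 (-0.67) and Tgfb1 (-0.34) fell, beside 24.5% of all tested genes passing. Between 5C and 3C, Smad7 (0.67) and Tgfb3 (0.94) were higher in 5C, and Tgfb2 (-0.54) and Smad3 (-0.40) were lower.

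**Figure D4:**
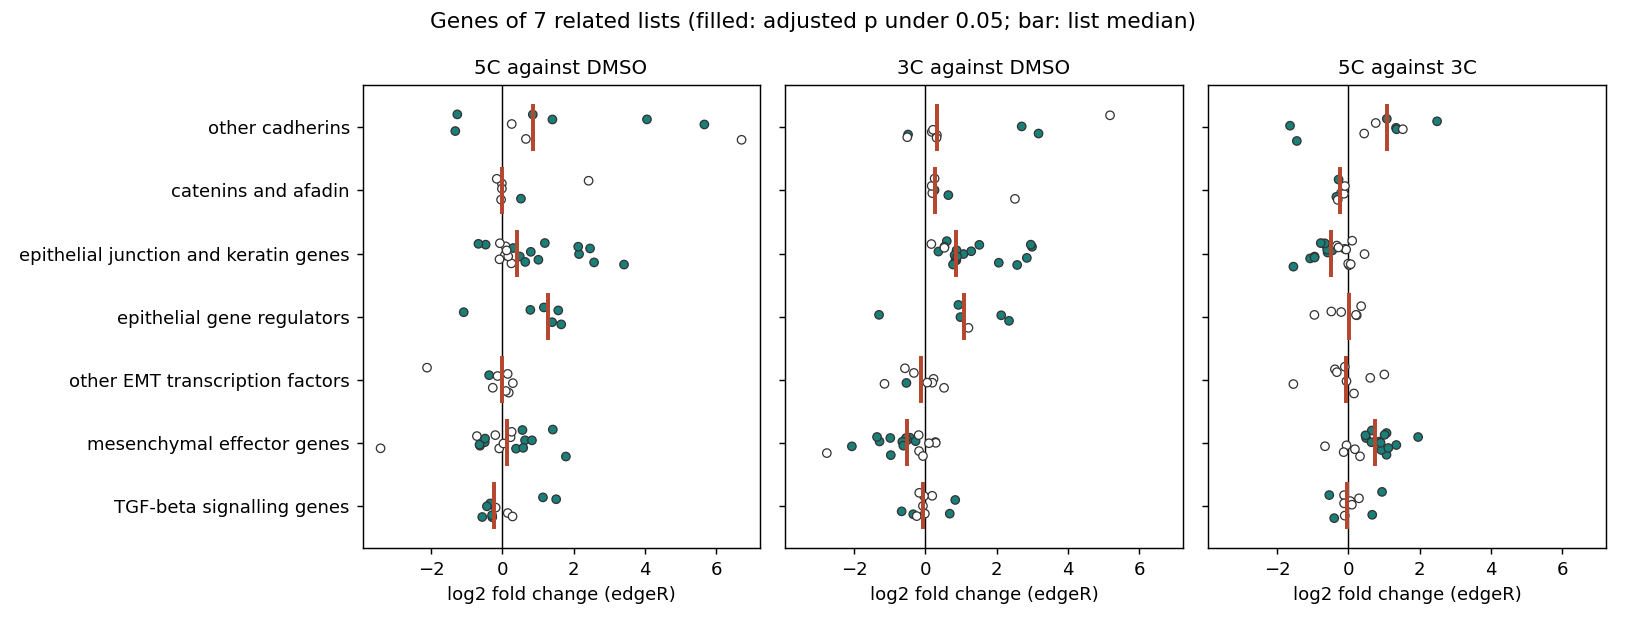
Log2 fold change (horizontal axis) of each tested gene of 7 related lists in the 3 comparisons, where filled points had an adjusted p under 0.05 in edgeR and red bars are list medians. In 3C the epithelial junction genes lay mostly above 0 and the mesenchymal effector genes mostly below 0, and in 5C against 3C both lists lay mostly on the opposite side.

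For each of the 10 genes, the genes with the most similar pattern were sought among 10246 genes, by the smallest root mean square (RMS) difference of centred log2 CPM over the 6 libraries. The closest to Cdh1 were Rragd (RMS difference of 0.06 on the log2 scale), F2rl1 (0.11) and Tgfa (0.12). Tgfa, which encodes an epidermal growth factor receptor ligand, was at 82.3 and 88.6 CPM in DMSO, 175 and 171 CPM in 3C, and 84.5 and 73.8 CPM in 5C, so that both 3C libraries were highest. The closest to Zeb2 were Rassf2 (0.03), Adcy7 (0.03) and Mertk (0.04), the last a receptor with which macrophages take up dying cells. Mertk was at 121 and 116 CPM in DMSO, 56.1 and 59.6 CPM in 3C, and 49.3 and 53.1 CPM in 5C.

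The closest to Twist1 were Fkbp10 (0.04), Vgll3 (0.06) and Fbxl16 (0.07). Fkbp10, a chaperone of collagen folding, was at 146 and 143 CPM in DMSO, 98.1 and 101 CPM in 3C, and 204 and 204 CPM in 5C. The closest to Snai1 were Kank4 (0.06), Prdm6 (0.09) and the glucose transporter gene Slc2a3 (0.10), and the closest to Snai2 were Mycl (0.08), Serpine2 (0.08) and Pvt1 (0.12). Slc2a3 was at 13.1 and 12.2 CPM in DMSO, 14.4 and 11.3 CPM in 3C, and 26.2 and 26.6 CPM in 5C, with 5C apart as for Snai1.

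Those closest to Cdh2 were Nono (0.03), Lnx2 (0.03) and Adamts14 (0.03), those closest to Vim were Shmt2 (0.02), Ddx24 (0.02) and Fam177a (0.03), and those closest to Fn1 were Zcchc14 (0.04), Btd (0.04) and Arid4b (0.05). Klhl36, Hmces and Thap6 came closest to Zeb1, each at 0.04. The nearest to Twist2, which had the widest spread, were Isg15 (0.21), Fam89b (0.22) and Oasl2 (0.25). Cdh2, Vim, Fn1 and Zeb1 varied little over the libraries, and small distances to them carry less than those to Zeb2 or Twist1.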

How the data were processed

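RNA-seq of 6 libraries (2 each of DMSO, 3C and 5C, day 16) was analysed at the gene level. Per gene, the authors deposited estimated counts (whole numbers, not normalized, 52323 genes). Values of 4 (4816 entries, against 3121 of 3) and 8 are in excess there, but those of 16 are not (868, against 888 of 15), and 1 is the commonest (6338). What 1 fragment is worth is thus uncertain, and the floor of 3 fragments, set at 12 units, assumes 4 units each. The deposited FPKM table (52327 genes) was scaled by the authors for gene length and library total, and was used for levels between genes and in alternatives. FPKM did not follow CPM by a fixed factor for each gene. In 5C, Zeb1 was at 7.63 and 11.4 FPKM beside 45.1 and 52.7 CPM. The length used for a gene may thus differ between libraries, and orders and ratios from FPKM carry this uncertainty. The submitters' processing notes name GRCm39, featureCounts, Subread and DESeq2 without roles, and the aligner and the use of strand are not given in the sources used here.

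Counts were tested with the quasi-likelihood test of edgeR 4.0.16 (R 4.3.3), with TMM normalization, filterByExpr, robust dispersions and 1 coefficient per group over all 6 libraries (3 residual degrees of freedom, common biological coefficient of variation 18.4%). Adjusted p-values are Benjamini-Hochberg over the 19135 genes tested in each comparison. CPM is the count scaled to the library total, and the SE follows from the F statistic. Tested on simulated data of 5C against DMSO with 200 of 19135 genes changed by a log2 fold change of 2, the steps recovered 179 to 187 with 5 to 13 false calls. Floors cover counting error only. Replicates differed by more than sampling noise and were counted separately. Same-numbered libraries were not correlated (r of -0.0306 to 0.0161 between groups), so the replicate number was used as a block only in an alternative.

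Alternatives were RLE normalization, all genes with at least 1 count, DESeq2 1.42.0, fits of the 4 libraries compared, the replicate block, counts divided by 4, limma 3.58.1 on log2(FPKM + 1) and log2(FPKM + 0.1), other fold limits, and leaving out each library. The 10 genes and all lists were chosen with earlier results of these data known. Named were the 10 genes, at most 4 passing genes per list and comparison by smallest adjusted p, and the 3 most similar genes of at least 10 CPM for each of the 10. Csf1r, Cd14, Cdh16 and Prrx1 were named after their values had been seen. A gene that this rule also names is not reported here. Positions and overlaps came from the GENCODE annotation of GRCm39, and promoters from RefSeq. Figures were drawn with matplotlib 3.10.9.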

Additional observations from a re-analysis of the deposited data

Results flagged for a closer look

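For 3 of the 10 genes the effects of the cocktails against DMSO differed from each other in edgeR's test of 5C against 3C, which share their DMSO libraries. Cdh1 differed by -1.15 on the log2 scale (adjusted p of 0.00027), with values of 0.92 in 3C and -0.23 in 5C. Twist1 differed by 1.07 (adjusted p of 0.00163), with values of -0.61 in 3C and 0.45 in 5C, and Snai1 by 0.92 (adjusted p of 0.00649), with values of -0.05 in 3C and 0.88 in 5C. In each case the 2 libraries of 5C and the 2 of 3C did not overlap, as for 58% of all tested genes.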

How the results depend on the processing

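Genes passing with an absolute log2 fold change above 1 numbered 2242 for 5C against DMSO, 1809 for 3C against DMSO and 576 for 5C against 3C. Limma on log2(FPKM + 1) gave 1231, 958 and 261, and no limit on the fold change gave 5485, 4689 and 2423. Leaving out 1 library gave 1923 to 2191, 1535 to 1784 and 381 to 642, the lowest of the last without 5C replicate 2. Of the 10 genes, 3, 5 and 3 passed, and 1, 1 and 2 with the fold limit. Leaving out 1 library gave 2 to 5 (5 without DMSO replicate 1), 2 to 5 (2 without either 3C replicate) and 3 to 4. With the replicate block, 2125, 1737 and 536 genes and 4, 5 and 4 of the 10 passed, Cdh1 in 5C against DMSO (adjusted p of 0.0410) and Snai2 in 5C against 3C (0.0390) being added, and it changed no other call of the 10.

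Of 420 values of the 10 genes under alternatives, 382 kept their direction and side of the threshold, 16 no longer passed, 14 newly passed and 8 reversed. Zeb2 in both comparisons with DMSO, Cdh1 in 3C against DMSO and 5C against 3C, Snai1 in 5C against DMSO and against 3C, and Twist1 in 5C against 3C passed in all 14 alternatives. The 8 reversals were of values that did not pass, all on leaving out 1 library. For 5C against DMSO, leaving out a library moved Cdh2 from -0.0013 (without DMSO replicate 1) to 0.136, and Twist2 from -0.587 to 0.454 (without DMSO replicate 2), with 0.0716 without 5C replicate 2. For 3C against DMSO it moved Snai1 from -0.307 to 0.176 (without 3C replicate 2), with 0.0528 without DMSO replicate 1, Snai2 from -0.0396 (without DMSO replicate 1) to 0.363, and Zeb1 from -0.0145 (without 3C replicate 2) to 0.187. For 5C against 3C it moved Zeb1 from -0.0186 (without 5C replicate 2) to 0.237. The cause was not tested. With 2 libraries a group and 3 residual degrees of freedom, small changes are hard to detect. Twist2 had the lowest counts of the 10 genes, and the parts of depth and of spread in its error were not separated.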
